A study of Mus musculus with 2 samples.

Results

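The collagen genes are the protein-coding genes named for the alpha chains of collagens, and 44 of the 45777 genes in the deposited table carried such a symbol. Their transcript levels were compared between a single teratoma library of each of 2 cell lines, named E14 and E14-Sox2TA/WT. E14 is a mouse ESC line with wild-type Sox2, and E14-Sox2TA/WT cells are a line of the same origin, grown from selected single cells, that carries the T258A change on 1 allele of Sox2. Teratomas of both lines grew subcutaneously in BALB/c-nu mice from cells inoculated with Matrigel, and were harvested on day 14. With 1 library per group no difference has a replicate check, no p-value can be given, and a difference between the lines cannot be told apart from a difference between tumours. The sources used here do not state whether a library came from 1 teratoma or several. Host and tumour are both mouse, so collagen transcripts of host stroma and of ESC-derived cells cannot be told apart, nor can more cells of a type and more RNA per cell.

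Collagens are secreted or membrane-bound proteins whose alpha chains wind into a triple helix, and they make up most of the extracellular matrix of connective tissue. Fibrillar collagens form the cables of skin, bone and stroma, collagens II, IX and XI form the fibrils of cartilage, and collagen X is laid down by hypertrophic chondrocytes, the last stage before cartilage is replaced by bone. Collagen IV builds the sheet of basement membranes, and collagen VI forms beaded filaments around cells. Chains of 1 collagen type are assembled inside the cell, so the relative levels of partner chains are of interest beside the levels themselves.

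The promoters of 5 members are printed because these genes bracket the findings: Col10a1 and Col8a1 had the largest fold changes, Col1a2 and Col3a1 were the most abundant collagen transcripts in E14-Sox2TA/WT, and Col9a2 had nearly equal levels in both. Each window holds the 150 bases before the gene's start in RefSeq's GRCm38.p6, the mm10 build of the files, written 5′ to 3′ on the gene's strand. The windows are chr10:34389831-34389980 on the plus strand for Col10a1, chr16:57754738-57754887 on the minus strand for Col8a1, chr6:4505468-4505617 on the plus strand for Col1a2, chr1:45311388-45311537 on the plus strand for Col3a1 and chr4:121039416-121039565 on the plus strand for Col9a2. Capitals mark matches, on either strand, to the letters TATAAA for a TATA box, the letters CCAAT for a CCAAT box, the letters GGGCGG for a GC box and the letters AACAAT for the core motif of Sox proteins.
Col10a1: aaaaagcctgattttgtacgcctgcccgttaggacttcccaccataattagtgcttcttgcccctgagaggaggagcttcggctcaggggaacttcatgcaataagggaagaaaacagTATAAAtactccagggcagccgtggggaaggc
Col8a1: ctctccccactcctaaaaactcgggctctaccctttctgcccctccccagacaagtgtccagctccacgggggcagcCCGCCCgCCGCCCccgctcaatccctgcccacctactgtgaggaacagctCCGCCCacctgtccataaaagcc
Col1a2: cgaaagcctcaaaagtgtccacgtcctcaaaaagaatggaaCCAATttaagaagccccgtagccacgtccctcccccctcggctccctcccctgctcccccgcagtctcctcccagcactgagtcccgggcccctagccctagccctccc
Col3a1: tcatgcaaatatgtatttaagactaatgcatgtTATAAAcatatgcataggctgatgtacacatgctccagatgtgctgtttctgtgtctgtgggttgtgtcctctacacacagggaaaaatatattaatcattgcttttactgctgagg
Col9a2: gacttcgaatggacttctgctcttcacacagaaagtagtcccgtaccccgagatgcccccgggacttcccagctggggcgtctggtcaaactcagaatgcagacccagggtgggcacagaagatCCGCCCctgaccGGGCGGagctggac

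These windows differ in the letters searched. Col10a1 held TATAAA starting 32 bases before the start, Col3a1 held it 117 bases before the start, and Col1a2 held CCAAT 109 bases before the start, all on the sense strand. Col8a1 had 3 GC boxes, all antisense, and Col9a2 had 2, 1 on each strand. RefSeq windows were found for 35 collagen genes, 38 windows in all. TATAAA occurred in 4 of these, against 7.55% of the 32475 distinct windows of all genes, CCAAT in 8, against 24.4%, and GGGCGG in 19, against 28.9%. AACAAT occurred in 0 of the 38, against 5.31%. No match overlapped another in the 5 printed windows, whereas GC boxes overlapped each other in Col6a2 and Col8a2. A match describes letters, not a binding site.

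The table gives read counts, FPKM and TPM, the last being reads per transcript length rescaled to a fixed sum, so that TPM can be compared between genes. The libraries held 50529171 and 49030281 reads on genes. Values are given for E14 first and E14-Sox2TA/WT second. Each collagen gene had at least 11 reads in each library, and 95% Clopper-Pearson intervals, printed in brackets after a fold of TPM, cover counting error only. For the 11578 genes whose TPM reached 10 in either library, the log2 ratio of TPM + 1 had a median of -0.18, and from FPKM it was 0.01, so single genes are to be read against that shift. The labels give teratoma as the tissue, although their extraction note mentions an ESC line, so the tissue was checked against marker lists. Neuron, glia, muscle, epithelium, endoderm and macrophage markers were all detected in both libraries, as in a mixed tumour, and the 5 pluripotency markers summed to a TPM of 66.5 in E14 and 1744 in E14-Sox2TA/WT.

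Collagen transcripts made up a larger part of the E14-Sox2TA/WT library. The 44 genes summed to a TPM of 1011, or 0.101% of the total, in E14, and 1864, or 0.186%, in E14-Sox2TA/WT, a 1.84-fold difference. In reads the sums were 138568 and 282558. Mitochondrial genes took 5.17% and 9.70% of the TPM, and with these left out of the total the collagen share was 0.107% and 0.206%. The 5 most abundant collagen genes held 51.8% of the collagen TPM in E14 and 62.9% in E14-Sox2TA/WT. Col3a1 was the most abundant in both. The next ranks changed: Col4a1, Col4a2 and Col1a2 followed in E14, and Col1a2, Col4a1 and Col1a1 in E14-Sox2TA/WT. Over the 44 genes, which share the 2 libraries and their depth, Spearman's rho between the levels was 0.896, a description of the order only.

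**Figure D1:**
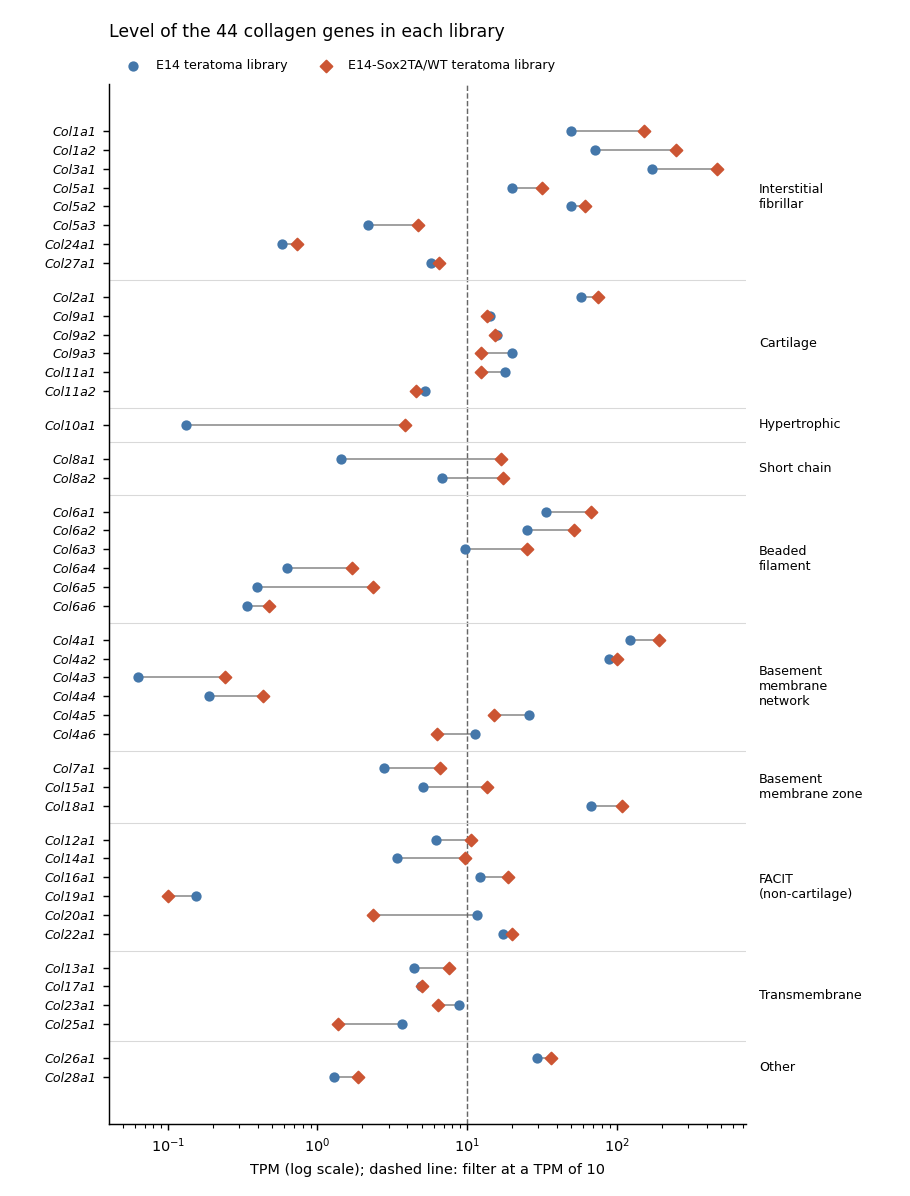
TPM (log axis) of the 44 collagen genes, grouped by class, with circles for the E14 library, diamonds for the E14-Sox2TA/WT library and a dashed line at the TPM filter of 10. Col1a1, Col1a2 and Col3a1 lie far to the right with the E14-Sox2TA/WT diamond ahead, while the cartilage genes other than Col2a1 overlap or point the other way.

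Collagen genes were called by the rule of the study, a more than 2-fold difference in TPM for genes whose TPM reached 10 in either library. Of the 44 genes, 26 passed the TPM filter, and 8 were called higher and 1 lower in E14-Sox2TA/WT. Among all 11578 genes that passed, 10.8% were called higher and 18.7% lower, and among the 26 collagen genes the shares were 30.8% and 3.85%. Counts of called markers given below are to be read against the same 10.8% and 18.7%. The higher genes were Col1a1, Col1a2, Col3a1, Col6a2, Col6a3, Col8a1, Col8a2 and Col15a1, and the lower gene was Col20a1. Of the 8, 4 passed the filter only through the E14-Sox2TA/WT library (Col6a3, Col8a1, Col8a2 and Col15a1), and Col20a1 passed only through the E14 library. For such genes the filter fixed the direction, though not a 2-fold difference. Col12a1, passing only through E14-Sox2TA/WT with a ratio of 1.70, and Col4a6, passing only through E14 and 1.78-fold lower, were not called. Below the filter, 8 more genes had a TPM ratio above 2 and 1 had a ratio below 1/2. Across all 44, the counting interval lay wholly above equal TPM for 30 genes and wholly below it for 8, and it spanned equality for 6. Among the 18983 genes with at least 11 reads in each library, the interval lay wholly above equality for 37.0% and wholly below it for 46.2%, so at this depth an interval clear of equality was common to most genes. The log2 ratio of TPM + 1 had a median of 0.63 over the 39 genes whose TPM reached 1, and 29 of these were above 0. Its order-statistic interval, 0.18 to 0.98, describes spread among genes that share the 2 libraries and is not a replicate check. Over 18558 genes the median was -0.06, and 47.5% were above 0. With a 1.5-fold rule 14 collagen genes were higher and 4 lower (18.2% and 32.3% of all genes), with a 3-fold rule 3 were higher and 1 lower (5.73% and 8.77%), and with a TPM filter of 1 in place of 10, 14 were higher and 2 lower (19.3% and 18.9%). Without a TPM filter 16 of the 44 were higher and 2 lower, against 31.4% and 20.6% of 29148 genes, so the higher share was then close to that of all genes. Where both libraries had to reach a TPM of 10, 4 of 19 were higher and 0 lower, against 5.34% and 12.5% of 8963 genes.

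**Figure D2:**
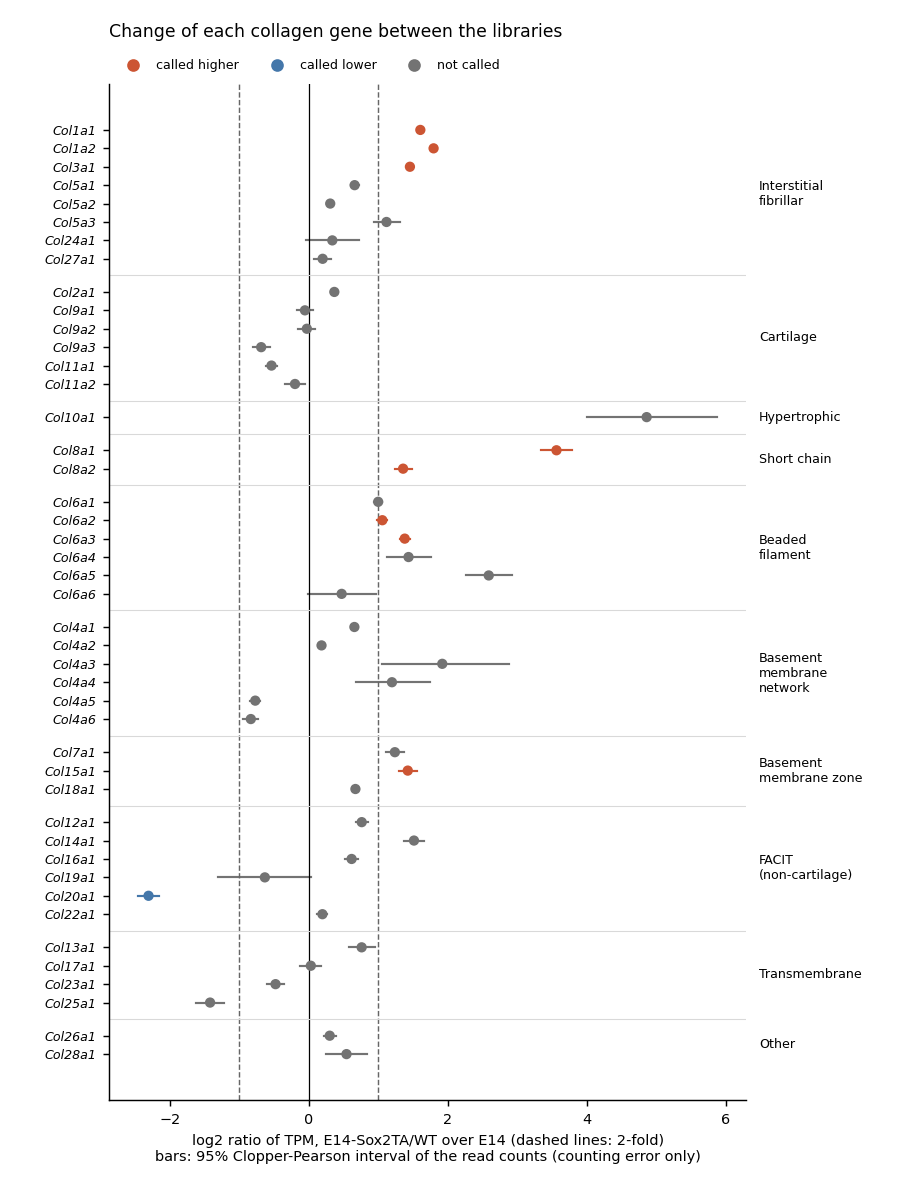
log2 ratio of TPM (E14-Sox2TA/WT over E14) of each collagen gene with its 95% counting interval, coloured by call, with dashed lines at 2-fold. Col10a1 lies farthest right at 29.1-fold with a wide interval, and Col20a1 is the only gene called lower.

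Fibrillar collagens other than types II and XI carried most of the difference. This class of 8 genes summed to a TPM of 372 in E14 and 978 in E14-Sox2TA/WT, and its share of the collagen TPM went from 36.8% to 52.4%. Col1a1 and Col1a2 encode the chains of collagen I, the main protein of bone, tendon and dermis. Col1a1 (chr11:94936224-94953042) had a TPM of 49.9 in E14 and 152 in E14-Sox2TA/WT, 3.04-fold higher (2.96 to 3.12). Col1a2 (chr6:4505618-4541543), whose promoter is printed above, had 71.6 and 249, 3.47-fold higher (3.39 to 3.55). Col3a1 (chr1:45311538-45349706), the single chain of collagen III, which accompanies collagen I in stroma and vessel walls, had 172 and 472, 2.74-fold higher (2.70 to 2.78). These 3 genes were thus higher by similar factors on 3 different chromosomes.

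Collagen V starts and limits the thickness of collagen I fibrils, and its main chains had smaller ratios than those of collagen I. Col5a1 had a TPM of 20.04 in E14 and 31.6 in E14-Sox2TA/WT, a 1.58-fold difference (1.52 to 1.64). Col5a2 had 49.97 and 61.9, a 1.24-fold difference (1.202 to 1.27). Col5a3, the scarcest chain, had 2.16 and 4.70, a ratio of 2.17 (1.91 to 2.48) below the TPM filter. None of these was called. Within the libraries the TPM of Col5a1 was 0.401 of that of Col5a2 in E14 and 0.511 in E14-Sox2TA/WT. The fibrillar genes Col24a1, at 0.577 and 0.729, and Col27a1, at 5.71 and 6.55, were low in both. Their differences from equality were small, and the counting interval of Col24a1 spanned equality (0.971 to 1.65).

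The chains of collagen I were compared within each library. The TPM ratio of Col1a1 to Col1a2 was 0.696 (0.675 to 0.718) in E14 and 0.610 (0.600 to 0.620) in E14-Sox2TA/WT, although the protein holds more of the first chain than of the second. The ratio of Col3a1 to Col1a1 was 3.45 (3.36 to 3.54) and 3.11 (3.06 to 3.16). Neither pair of intervals overlapped, but they cover counting error only. How often other gene pairs differ in this way was not computed. The 8 fibroblast markers summed to a TPM of 387 and 785, and none was at 0. Of these, 7 passed the filter and 3 (Lum, Thy1 and Fbln1) were called higher, against 10.8% of all genes. Thy1 passed only through E14-Sox2TA/WT. The mesenchymal receptors Pdgfra, at 21.6 and 26.1, and Pdgfrb, at 15.7 and 17.1, differed little. The part of fibroblast number in the collagen I and III levels was not tested.

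**Figure D3:**
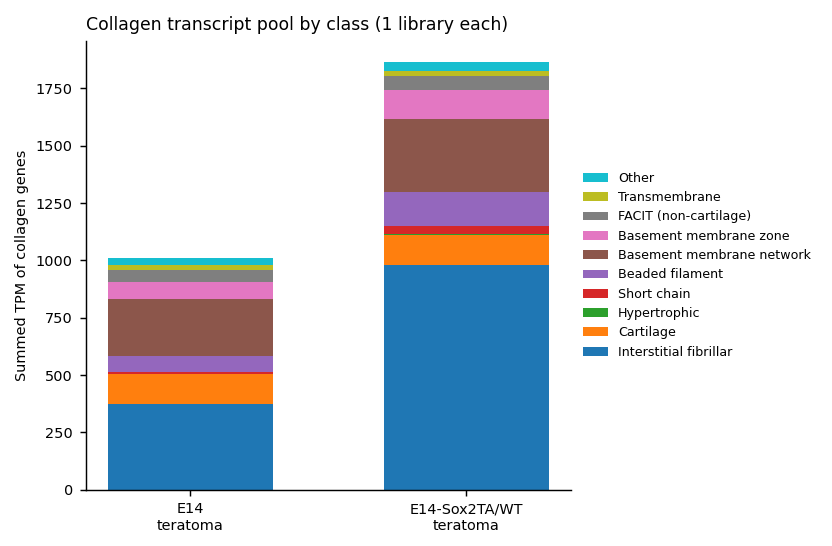
Summed TPM of the collagen genes in each library (bars start at 0), stacked by class. The bar of the E14-Sox2TA/WT library reaches 1864 against 1011, most of the difference lies in the interstitial fibrillar class, and the cartilage segment has the same height in both.

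Cartilage collagens had nearly the same summed level in the 2 libraries. The 6 genes of collagens II, IX and XI summed to a TPM of 131 in E14 and 133 in E14-Sox2TA/WT, and none was called in either direction. As a share of the collagen TPM they went from 13.0% to 7.16%. Col2a1 (chr15:97975602-98004724), which encodes the main fibril of cartilage, had a TPM of 58.0 and 74.8, a 1.29-fold difference (1.25 to 1.33). On its chromosome, 15, the median of all genes was 0.41 above the genome (log2), and the part of that shift was not tested. It was the only cartilage collagen with a higher TPM in E14-Sox2TA/WT.

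Collagen IX sits on the surface of the collagen II fibril and is built from 3 different chains. Col9a1 had a TPM of 14.3 in E14 and 13.7 in E14-Sox2TA/WT, and Col9a2, whose promoter is printed above, had 15.8 and 15.5, and both counting intervals spanned equality. Their signs changed with FPKM or with scaled read counts. Col9a3 had 19.9 and 12.4, 1.61-fold lower (1.48 to 1.75). Col9a3 therefore went from the most abundant of the 3 chains to the least, at 1.26 times Col9a2 in E14 (1.16 to 1.37) and 0.800 times in E14-Sox2TA/WT (0.733 to 0.872). Collagen XI lies in the core of the fibril. Col11a1 had 18.1 and 12.5, 1.45-fold lower (1.38 to 1.53), and Col11a2 had 5.28 and 4.59, 1.15-fold lower (1.04 to 1.27), a difference whose sign changed with read counts scaled by library total.

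The transcripts of Col1a1 and Col2a1 stood in different proportion in the 2 libraries. Col1a1 had 0.859 times the TPM of Col2a1 in E14 (0.831 to 0.888) and 2.03 times in E14-Sox2TA/WT (1.98 to 2.07). Of 10 chondrocyte markers other than collagens, the 3 that passed the filter, Sox9, Sox5 and Sox6, were called lower, the last 2 passing only through E14, at a TPM of 44.1 and 16.9 for Sox9, the factor that drives chondrocyte differentiation and is also made in glia and neural progenitors. Acan, the main cartilage proteoglycan, had 0.252 and 1.01, Comp had 0.159 and 0.742, and Matn1 had 0 reads in E14 and a TPM of 0.845 in E14-Sox2TA/WT. Matn3 had 0.382 and 1.67, a ratio of 4.36 (2.89 to 6.81). Thus 4 of the 10 markers had a ratio above 2 or were at 0 in E14 only, all below the filter. Without a filter 31.4% of 29148 genes did so, a share close to that of this list. Hapln1, Cnmd and Ucma lay between 1.29 and 3.74. The list summed to 81.9 and 33.3, and most of both sums came from Sox9, Sox5 and Sox6. Acan, Comp and Matn1 were thus near or below a TPM of 1, and Matn3 reached 1.67, in libraries with a Col2a1 level above 50. The ratios of Acan and Comp were 3.99 (2.89 to 5.60) and 4.66 (2.39 to 9.93). Those of Hapln1, Cnmd and Ucma were 0.849, 0.828 and 0.704, with intervals that spanned equality. The name of the class describes the tissue these collagens are known from, not a source shown here.

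Col10a1 had the largest fold change of the family. Its gene (chr10:34389981-34397085), whose product forms the matrix around hypertrophic chondrocytes, had 11 reads in E14 and 326 in E14-Sox2TA/WT. The TPM was 0.133 and 3.87, 29.1-fold higher with an interval from 16.1 to 58.9 that reflects the few E14 reads. It stayed below the TPM filter of 10 in both libraries and so is not among the called genes. Relative to Col2a1, its TPM was 0.229% in E14 and 5.17% in E14-Sox2TA/WT. Of 10 hypertrophic chondrocyte and osteoblast markers, all had a TPM ratio above 2 or were at 0 reads in E14 only. The 4 that passed the filter (Ibsp, Alpl, Spp1 and Pth1r, the last at a TPM of 15.9 and 38.8) were called higher. The part of other cell types in the levels of this list was not tested. Over all genes the shares were 31.4% without a filter and 10.8% called higher. Among the 4 called, Ibsp, a bone sialoprotein gene, had a TPM of 0.659 and 12.2 and passed only through E14-Sox2TA/WT. Alpl, a phosphatase of mineralising cells, had 23.6 and 62.2. Alkaline phosphatase staining is also what the study used to score undifferentiated ESC colonies. The 5 pluripotency markers summed to 66.5 and 1744, and the part of pluripotent cells in the Alpl level was not tested. Spp1, at 36.7 and 340, is also made by macrophages, whose 4 markers summed to 667 and 1247, and their part was not tested. Bglap and Bglap2 were at 0 reads in E14 and at 3.18 and 2.76 in the other. They are near-identical copies, so reads may be split between them.

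Col8a1 and Col8a2, the short chains that form the hexagonal network of collagen VIII under endothelia and in the cornea, were both called higher. Col8a1 (chr16:57624256-57754737), with the GC boxes printed above, had 177 reads and a TPM of 1.43 in E14, and 2332 reads and a TPM of 17.0 in E14-Sox2TA/WT, 11.8-fold higher (10.2 to 13.9). Col8a2 had a TPM of 6.83 and 17.5, 2.56-fold higher (2.35 to 2.79). The chains were unequal in E14, with Col8a1 at 0.210 of Col8a2 (0.177 to 0.248), and near equal in E14-Sox2TA/WT, at 0.971 (0.914 to 1.03). The 5 endothelial markers summed to 81.6 and 86.8 and none was called, while Tek, below the filter, had 2.21 and 6.44. Of 4 smooth muscle markers, which summed to 65.9 and 120, Tagln was called higher, Acta2, at 49.04 and 52.6, was not, and Myh11 and Cnn1, below the filter, had ratios of 2.01 (1.57 to 2.59) and 2.104 (1.545 to 2.89).

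Collagen VI had TPM ratios above 1 for all 6 of its chains, and 2 were called higher. Col6a1, Col6a2 and Col6a3 encode the standard trimer of the beaded filaments around muscle, fat and stromal cells. Col6a1 had a TPM of 33.9 in E14 and 67.7 in E14-Sox2TA/WT, and its fold of 1.997 (1.92 to 2.08) fell just short of the 2-fold rule. Col6a2, its neighbour on chromosome 10, had 25.1 and 52.3, 2.08-fold higher (1.98 to 2.19), just past the rule. Col6a3, on chromosome 1, had 9.75 and 25.4, 2.60-fold higher (2.48 to 2.73). The ratio of Col6a1 to Col6a2 was 1.35 (1.28 to 1.42) and 1.29 (1.25 to 1.34) in the 2 libraries, so these neighbours kept their proportion within overlapping intervals. The alternative chains were scarce, and Col6a5 stood out among them at 0.392 and 2.36, a ratio of 6.02 (4.81 to 7.62). Col6a4 had 0.627 and 1.70, and Col6a6 had 0.340 and 0.472 with an interval that spanned equality.

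Basement membrane collagen IV differed by chain pair. Its 6 genes lie as 3 neighbouring pairs that face away from a shared start region, and RefSeq's Col4a1 and Col4a2 overlap there by 85 bases (chr8:11198423-11312889 and chr8:11312805-11449287). Col4a1 and Col4a2 form the network found in nearly all basement membranes. Col4a1 had a TPM of 123 in E14 and 193 in E14-Sox2TA/WT, a 1.58-fold difference (1.55 to 1.60), and Col4a2 had 89.4 and 101, a 1.13-fold difference (1.11 to 1.16). Both lie on chromosome 8, where the median log2 ratio of all genes was 0.43 below that of the genome. The ratio of Col4a1 to Col4a2 was 1.37 (1.34 to 1.40) in E14 and 1.91 (1.87 to 1.94) in E14-Sox2TA/WT. These intervals do not overlap, but they cover counting error only, and other gene pairs were not compared.

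The X-linked pair had lower TPM in E14-Sox2TA/WT, without passing the rule. Col4a5 and Col4a6 are chains of specialised basement membranes such as those of kidney and smooth muscle, and their starts lie 1274 bases apart. Col4a5 had a TPM of 26.03 in E14 and 15.2 in E14-Sox2TA/WT, 1.71-fold lower (1.63 to 1.79). Col4a6 had 11.3 and 6.35, 1.78-fold lower (1.66 to 1.92). Their ratio to each other was 2.30 (2.17 to 2.43) and 2.40 (2.24 to 2.58), with overlapping intervals. Col4a5 was 21.2% of Col4a1 in E14 and 7.89% in E14-Sox2TA/WT. Col4a3 and Col4a4, the kidney and lung pair on chromosome 1, stayed below a TPM of 0.5 in both, with ratios of 3.79 (2.08 to 7.37) and 2.29 (1.60 to 3.34) from 14 and 43 reads in E14. Endoderm markers, which include cells that secrete thick basement membrane, had 5 of 6 genes called higher, all 5 passing only through E14-Sox2TA/WT, with Lama1, a laminin chain, at 9.98 and 40.3, and their part in the Col4a1 level was not tested.

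The 3 collagens at the edge of basement membranes had TPM ratios above 1, and 1 was called higher. Col15a1, a muscle and capillary collagen, had a TPM of 5.05 in E14 and 13.5 in E14-Sox2TA/WT, 2.68-fold higher (2.45 to 2.94), and was called. Col18a1, the precursor of endostatin, had 67.9 and 108, a 1.59-fold difference (1.55 to 1.64). Col7a1, the anchoring fibril of stratified epithelium, had 2.80 and 6.61, a ratio of 2.36 (2.15 to 2.59) below the TPM filter. Col17a1, the transmembrane collagen of hemidesmosomes in the same epithelium, had 4.94 and 5.04, a ratio of 1.0198 (0.917 to 1.13). The 4 basal and squamous epithelium markers summed to 191 and 371 beside these, with Krt5 and Krt14 called higher, the latter passing only through E14-Sox2TA/WT, and Trp63 at 6.96 and 6.43, and their part was not tested.

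FACIT collagens, which sit on fibrils without forming them, had ratios on both sides of 1. Col12a1 and Col14a1, of tendon and dense stroma, had a TPM of 6.25 and 3.41 in E14 and 10.6 and 9.74 in E14-Sox2TA/WT, ratios of 1.70 (1.59 to 1.80) and 2.86 (2.59 to 3.16). Col14a1 fell just below the TPM filter. Col16a1 had 12.2 and 18.7, and Col22a1, of muscle-tendon junctions, had 17.3 and 19.9. Col14a1 and Col22a1 lie on chromosome 15. Col19a1 was scarce, at 47 and 34 reads. Col20a1 (chr2:180983323-181017545) was the only collagen called lower, with 1892 and 466 reads and a TPM of 11.7 and 2.36, 4.95-fold lower (4.47 to 5.49).

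Among transmembrane collagens, Col25a1, a neuronal and muscle collagen, had the lowest ratio. It had a TPM of 3.66 in E14 and 1.37 in E14-Sox2TA/WT, 2.68-fold lower (2.33 to 3.09), below the filter. Col23a1 had 8.89 and 6.37, 1.39-fold lower (1.28 to 1.52), and Col13a1, of neuromuscular junctions, had 4.45 and 7.54, a ratio of 1.69 (1.49 to 1.93). All 4 neuron markers were called lower, against 18.7% of all genes, with a summed TPM of 2357 and 335. Of 6 glia markers, 4 were called lower, 3 of these passing only through E14, and none was at 0, with sums of 347 and 128. The 5 skeletal muscle markers summed to 71.7 and 42.6. Ckm was called lower, passing only through E14, while Actn2, below the filter, had 3.14 and 7.42. The part of neural tissue in the Col20a1 and Col25a1 levels, and of muscle in those of Col13a1 and Col25a1, was not tested. Of the remaining genes, Col26a1 had 29.5 and 36.3, and Col28a1 had 1.29 and 1.88.

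Transcript length was examined because collagen transcripts are long. Lengths implied by reads and FPKM put the median collagen at the 88.8th percentile of genes whose TPM reached 1, and 30 of 39 lay above the 80th. Over all genes the log2 ratio declined with length, from a median of 0.48 in the shortest of 20 bins to -0.66 in the longest. The collagen genes lay above this trend in 31 of 39 cases. After each gene's bin median was taken away, 13 of the 26 collagen genes passed the 2-fold rule as higher in place of 8 and 1 as lower, against 11.1% and 15.5% of all 11578 genes, and the median over the 39 genes was 0.90.

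**Figure D4:**
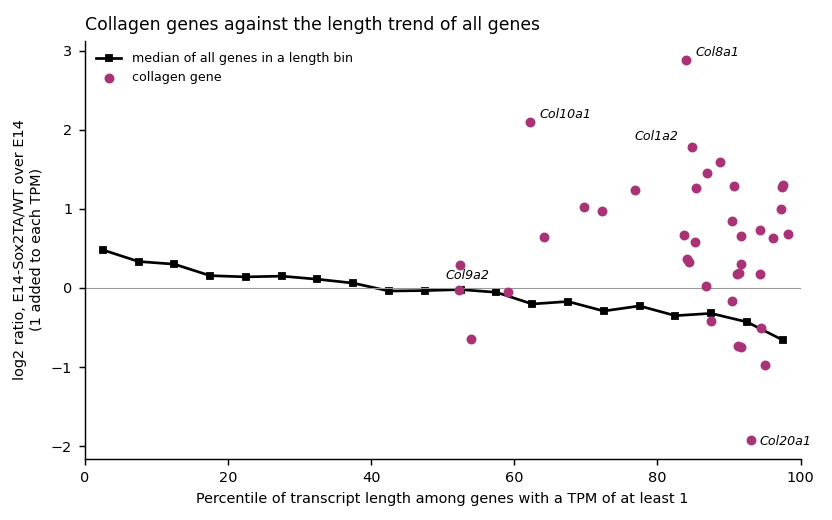
log2 ratio (1 added to each TPM) of 39 collagen genes against the percentile of their transcript length, with the median of all genes in 20 length bins as squares. Most collagen points lie above the falling line at its right end, with Col20a1 far below it.

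Enzymes and binding partners of collagen were described from lists fixed with the design, when earlier results of these data were known. Their counts are to be read against the 10.8% of all genes called higher and 18.7% called lower. In each of the first 4 lists 1 gene called higher passed the filter only through E14-Sox2TA/WT, where it was high (Creb3l1, Lox, Aspn and Mmp9). Among 19 genes for modification and folding in the ER, 17 passed the filter, 3 were called higher and 0 lower. The most abundant, Ppib at a TPM of 662 and 618, P4hb at 400 and 418, and Serpinh1 at 349 and 569, were not called. Ppib isomerises prolines, P4hb is a subunit of prolyl 4-hydroxylase, and Serpinh1 is the collagen chaperone HSP47. Crtap, part of the prolyl 3-hydroxylation complex, was 2.12-fold higher (1.98 to 2.27), P4ha2, a catalytic subunit, was 2.05-fold higher (1.88 to 2.23), and Creb3l1, a factor that activates collagen I genes in osteoblasts, was 3.44-fold higher (2.96 to 4.003), from 4.04 to 13.9. The median log2 ratio of this list was 0.03.

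Extracellular steps follow secretion. Of 13 genes for processing and cross-linking, 6 passed, and 2 were called higher and 0 lower. Pcolce, which enhances the cleavage of procollagen, had a TPM of 20.9 and 96.1, 4.60-fold higher (4.26 to 4.98). Lox, the lysyl oxidase that starts cross-links, had 6.06 and 29.3, 4.83-fold higher (4.46 to 5.24). Its relative Loxl2 had 22.6 and 35.8. Bmp1, the protease that removes procollagen's end piece, was not called at 109 and 62.2, 1.76-fold lower (1.71 to 1.81), so the enhancer and the protease went in opposite directions.

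Small leucine-rich proteoglycans coat collagen fibrils. Of 11 genes, 5 passed, 3 were called higher and 0 lower, and the median log2 ratio of the list was 1.43. Bgn had a TPM of 47.3 and 147, Lum had 49.5 and 184, and Aspn had 3.90 and 19.4, 3.11-fold (2.98 to 3.25), 3.72-fold (3.56 to 3.89) and 4.97-fold higher (4.31 to 5.77). Dcn, the most abundant, had 232 and 382 and was not called. Dcn and Lum are also among the fibroblast markers above. Among 8 genes of collagen degradation and uptake, 5 passed, 2 were called higher and 0 lower. Ctsk, the collagenase of osteoclasts, had 12.3 and 49.03, 3.99-fold higher (3.61 to 4.42), and Mmp9 had 2.52 and 10.8, 4.28-fold higher (3.68 to 4.99). Mmp2, at 56.4 and 61.2, and Mmp14, at 80.8 and 114, were not called. Below the filter, Mmp13, also in the hypertrophic and osteoblast list, had 0.556 and 9.17, a ratio of 16.5 (11.8 to 23.8). Mmp16 had 6.27 and 2.78, 2.26-fold lower (2.06 to 2.47). Without a filter 4 of the 8 had a ratio above 2 and 1 below 1/2, against 31.4% and 20.6% of all genes.

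Of 9 collagen receptors, 2 passed and 1 was called. Ddr1, the receptor of epithelia and neural cells, had a TPM of 157 in E14 and 61.5 in E14-Sox2TA/WT, 2.55-fold lower (2.47 to 2.62). Ddr2, its mesenchymal relative that binds fibrillar collagen and collagen X, stayed below the filter at 1.58 and 9.44, a ratio of 5.97 (5.31 to 6.72). Itgb1, the beta subunit shared by collagen-binding integrins, had 278 and 198. The alpha subunits Itga1, Itga2, Itga10 and Itga11 were between a TPM of 1.16 and 3.84 in both libraries.

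**Figure D5:**
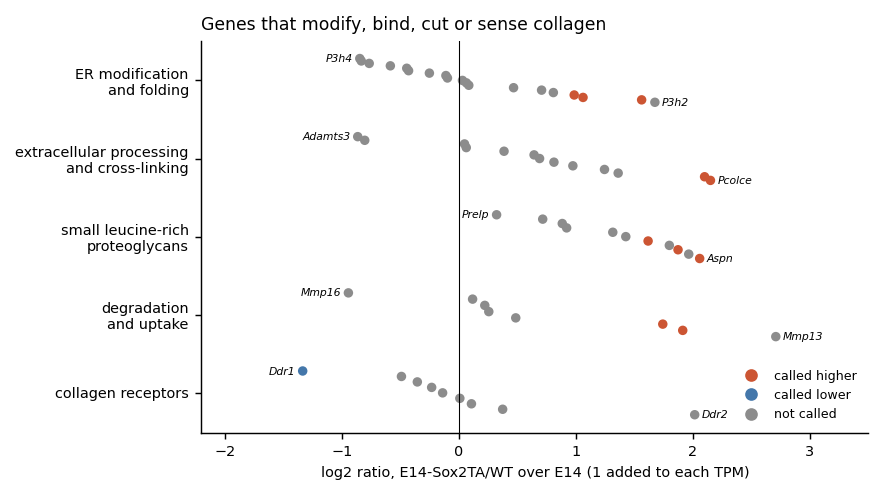
log2 ratio (1 added to each TPM) of each gene in the 5 lists of collagen-handling genes, coloured by call, with the lowest and highest gene of each list named. The proteoglycan points all lie right of 0, while Ddr1 and Ddr2 mark the opposite ends of the receptor list.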

How the data were processed

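Gene expression had been measured by RNA-seq in teratomas of 2 lines, with a single library each. The submitters' processing notes name Trimmomatic, HISAT2 2.1.0 and StringTie 2.1.3b and the mm10 build. The authors deposited raw read counts for each gene, FPKM (counts scaled for length and depth) and TPM (the same, rescaled so that each library has an equal sum). Whether counting used strand is not given in the sources used here.

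Collagen genes were found by symbol and biotype and matched to RefSeq's GRCm38.p6 table by NCBI identifier (44 of 44). TPM ratios were computed with 95% Clopper-Pearson intervals of the read counts. Genes were called by the rule stated in the paper's methods, a more than 2-fold difference for genes whose TPM reached 10 in either library. It gave more genes in each direction than the paper reports. Medians used log2 values with 1 added to each TPM over genes whose TPM reached 1. A count of 0 allows up to 3 reads. The Clopper-Pearson intervals cover counting error only. The order-statistic interval of a median describes spread among genes that share the 2 libraries. The depth was 50529171 and 49030281 reads on genes.

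The members and lists were chosen with earlier results of these data known. Named genes were all collagen genes and, in each list, the 3 with the highest TPM and the 2 called genes with the largest change. P4ha2, Mmp13, Mmp16, the integrin alpha subunits, markers and some members just outside a threshold were named after their values were seen. Alternatives covered the TPM filter, fold, pseudocount, scaling (edgeR's TMM factors among them), centring and transcript length. The steps were tested on simulated data. Scripts ran in R 4.3.3 with edgeR 4.0.16 and in Python 3.11.15 with scipy 1.17.1, pandas 2.3.3 and numpy 2.4.6.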

Additional observations from a re-analysis of the deposited data

How the results depend on the processing

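No paired analysis was possible because each line gave a single library, and no library could be left out. Of 183 alternative values of the counts, medians and shares, 140 stayed within their limits (an interval, the range of a class or 1.5 times a count). For the others, 35 that moved and 8 that changed sign, the cause was not tested, except that other filters and folds test other genes by construction. No called collagen gene changed sign under another scaling, centring or length correction. A call needs more than a 2-fold difference, larger than these settings shift a gene, so that outcome was nearly fixed in advance. Of the genes not called, 4 changed sign (Col9a1, Col9a2, Col11a2 and Col19a1).

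Collagen genes called numbered 14 higher and 2 lower with a TPM filter of 1, 16 and 2 without a filter (31.4% and 20.6% of all genes), 4 and 0 (5.34% and 12.5%) where both libraries had to reach a TPM of 10, 14 and 4 at a fold above 1.5, and 3 higher at a fold above 3. Corrected for transcript length, 13 were higher and 1 lower (11.1% and 15.5% of all genes).

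The median log2 ratio of the cartilage class, -0.11, became 0.062 with FPKM, 0.13 with read counts scaled by library total, 0.0076 with TMM factors, 0.013 with size factors and 0.073 when centred. Corrected for length, the collagen IV median of -0.28 became 0.15 and the transmembrane median of -0.20 became 0.12, and the collagen IV median was 0.20 without a filter. The basement membrane zone median of 1.001 was 1.37 with library totals, 1.59 with length correction and 0.63 with a pseudocount of 5. The collagen VI median was 1.30 with a pseudocount of 0.1. The log2 ratio of Col10a1 was 1.46 with 1 added to each FPKM, 4.09 with a TPM pseudocount of 0.1 and 0.79 with 5. Without an added value its fold was 29.1 in TPM and 33.4 in FPKM, so the low value with FPKM came from the 1 added. The median of Col26a1 and Col28a1, 0.31, was 0.39, 0.56, 0.45, 0.45, 0.49 and 0.50 with FPKM, library totals, TMM, size factors, centring and length correction, and 0.40 and 0.19 with the 2 pseudocounts.

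Both other denominators were chosen after seeing the data. The collagen share was 0.107% and 0.206% with mitochondrial genes left out, and 0.274% and 0.576% of reads. At a fold above 1.5, ER modification genes numbered 5 higher and 3 lower, and processing genes 4 higher and 1 lower. At a fold above 3, 1 ER gene was higher and 0 receptors were lower.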

Other observations

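Lengths implied by reads and FPKM were also compared between the libraries, since a change there reflects which transcript forms were assigned reads. Relative to all genes, the implied length of Col20a1 was 1.09 times as long in the E14-Sox2TA/WT library, that of Col11a2 was 1.08 times as long, and that of Col10a1 was 0.911 times as long, the last from 11 reads in the E14 library. Col20a1 and Col11a2 were the 2 beyond 0.1 on the log2 scale among the 38 collagen genes whose TPM reached 1 with 30 or more reads in each library, and of all 16179 genes of that kind 11.5% passed that limit.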
